A study of Mus musculus with 6 samples.

Results

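Interferon-stimulated effector genes encode the proteins that block viral infection inside a cell once interferon has been sensed. They are described here by the chromatin state map of mouse hematopoietic stem cells (HSCs) over 42 such genes. Each gene was taken as its RefSeq record with 5 kb added on each side, and every segment of the map that overlapped this window was kept. The 42 windows drew on 925 of the 850831 segments of the genome, and the 42 genes stand among 21779 protein-coding genes placed on the map. The list was chosen for function and not from the values of the map, but with an earlier account of these data known.

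The study asked how HIRA, the chaperone that places histone variant H3.3 on chromatin outside DNA replication, acts in HSCs. Its 6 libraries, all from bone marrow HSCs of adult C57BL/6 mice, were 2 H3.3 ChIP libraries from HIRA KO cells, 2 from WT cells, and 1 input each from HIRA KO and WT cells. Hira was deleted conditionally in the blood system by 2 intraperitoneal doses of 20 ug of poly(I:C), a synthetic double-stranded RNA that itself induces interferon. Per the labels' protocols this treatment applied to every library, WT included, and HSCs were sorted 7 days after the first dose. There was no group without poly(I:C), so no effect of interferon can be read from these data, and the Cre driver is not given in the sources used here. The deposited values are 1 map of 18 numbered states in bins of 200 bp on mm10, tied to WT H3.3 by its file name only. It holds no counts, no replicates and no HIRA KO column, so depth is unknown, no difference between genotypes was analysed here, and no test was run. All counts below describe this single map, and intervals around shares (95%, Wilson) cover counting error only.

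Interferons bind receptors at the cell surface, and the JAK kinases on those receptors activate transcription factors inside the cell. The complex ISGF3 then binds the interferon-stimulated response element (ISRE) in promoters and switches on the effector genes. HSCs are known for keeping part of the antiviral program active without infection, and interferon brings dormant HSCs into the cell cycle. H3.3 is known to accumulate at active promoters, over transcribed gene bodies and at some silent repeats, and HIRA places it mainly at the active sites.

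The map numbers its states without naming them, and the signals behind them are not given, so a state is described only by where it lay. States 3 to 6, grouped because an earlier look at the map had found them at gene ends, each covered under 1% of bases, from 0.224% for state 4 to 0.348% for state 3. State 8 covered 5.23% of bases, state 17 covered 15.2%, and state 18 covered 55%. An end of the gene was in states 3 to 6 for 10 of 10 HSC marker genes and for 2 of 20 markers of mature neutrophils, B cells, T cells and macrophages. Over all protein-coding genes the share was 47.6%. Markers of the labelled cell type thus carried states 3 to 6, and few markers of mature blood cells did.

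RefSeq lists a promoter, 250 bases before to 50 after a start, for 33 of the 42 genes, and with it their strand. The promoters below, read 5′ to 3′ on the gene's own strand from RefSeq on GRCm38.p6, are shown because their letters hold the ISRE core and, in all but the last, their start lay in states 3 to 6. Capitals mark every match to the ISRE core GAAANNGAAA or its reverse complement TTTCNNTTTC, and matches that overlap run on as 1 block. They are the first gene with a match in each role group that had one: Ifit1 (chr19:34640639-34640938, plus strand), Oas1a (chr5:120907476-120907775, minus strand), Isg15 (chr4:156200769-156201068, minus strand), Ifih1 (chr2:62646206-62646505, minus strand), Gbp2 (chr3:142620413-142620712, plus strand), Slfn5 (chr11:82951852-82952151, plus strand) and Rsad2 (chr12:26456403-26456702, minus strand). The group of PARP genes and Dtx3l had no match in its listed promoters. Ifit3 (chr19:34583279-34583578, plus strand) is the promoter whose start lay outside states 3 to 6.
Ifit1: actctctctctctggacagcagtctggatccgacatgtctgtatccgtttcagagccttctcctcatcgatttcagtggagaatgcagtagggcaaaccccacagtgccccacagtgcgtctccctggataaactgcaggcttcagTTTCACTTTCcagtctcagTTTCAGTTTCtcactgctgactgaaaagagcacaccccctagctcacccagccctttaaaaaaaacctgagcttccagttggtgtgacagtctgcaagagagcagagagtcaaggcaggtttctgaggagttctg
Oas1a: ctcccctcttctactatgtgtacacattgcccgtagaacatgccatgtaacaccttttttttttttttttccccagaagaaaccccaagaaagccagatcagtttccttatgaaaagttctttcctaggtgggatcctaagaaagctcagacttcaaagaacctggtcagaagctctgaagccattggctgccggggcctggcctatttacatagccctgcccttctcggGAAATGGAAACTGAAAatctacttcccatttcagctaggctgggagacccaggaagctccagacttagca
Isg15: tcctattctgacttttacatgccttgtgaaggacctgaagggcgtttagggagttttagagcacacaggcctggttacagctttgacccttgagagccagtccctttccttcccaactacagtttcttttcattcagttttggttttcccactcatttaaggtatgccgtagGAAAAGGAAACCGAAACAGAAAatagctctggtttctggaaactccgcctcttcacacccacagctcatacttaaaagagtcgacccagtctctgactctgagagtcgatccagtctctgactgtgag
Ifih1: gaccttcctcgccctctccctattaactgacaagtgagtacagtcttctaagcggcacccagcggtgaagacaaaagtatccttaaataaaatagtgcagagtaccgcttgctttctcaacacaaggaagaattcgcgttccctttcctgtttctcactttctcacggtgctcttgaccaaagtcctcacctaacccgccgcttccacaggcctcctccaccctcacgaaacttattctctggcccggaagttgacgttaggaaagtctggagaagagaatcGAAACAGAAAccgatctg
Gbp2: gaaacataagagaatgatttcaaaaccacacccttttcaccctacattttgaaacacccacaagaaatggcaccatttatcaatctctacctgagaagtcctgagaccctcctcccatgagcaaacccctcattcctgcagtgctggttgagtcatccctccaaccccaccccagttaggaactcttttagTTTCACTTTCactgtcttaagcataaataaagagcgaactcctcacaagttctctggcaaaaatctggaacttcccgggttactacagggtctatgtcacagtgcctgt
Slfn5: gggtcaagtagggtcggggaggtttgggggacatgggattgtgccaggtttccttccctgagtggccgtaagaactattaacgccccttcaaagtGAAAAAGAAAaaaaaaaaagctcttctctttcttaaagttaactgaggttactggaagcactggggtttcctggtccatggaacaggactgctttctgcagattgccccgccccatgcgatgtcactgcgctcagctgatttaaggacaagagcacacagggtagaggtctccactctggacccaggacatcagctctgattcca
Rsad2: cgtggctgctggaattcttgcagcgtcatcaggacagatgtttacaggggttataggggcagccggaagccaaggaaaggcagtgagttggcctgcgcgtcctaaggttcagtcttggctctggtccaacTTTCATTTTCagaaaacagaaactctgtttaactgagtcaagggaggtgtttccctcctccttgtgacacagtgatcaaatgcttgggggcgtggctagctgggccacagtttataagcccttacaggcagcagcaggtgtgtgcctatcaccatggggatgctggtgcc
Ifit3: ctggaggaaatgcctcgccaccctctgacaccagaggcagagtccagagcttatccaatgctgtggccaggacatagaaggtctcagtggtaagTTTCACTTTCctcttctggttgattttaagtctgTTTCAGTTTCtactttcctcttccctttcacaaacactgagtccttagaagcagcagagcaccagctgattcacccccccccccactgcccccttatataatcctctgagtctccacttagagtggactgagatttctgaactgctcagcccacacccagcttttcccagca
The start of Isg15 followed 3 overlapping matches in 1 block, that of Oas1a followed 2 overlapping matches, and Ifit1 and Ifit3 had 2 separate matches each. The match of Ifih1 lay after the start, and that of Slfn5 was the farthest upstream of the 7 promoters with a start in states 3 to 6.

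Nearly every effector gene had one of states 3 to 6 at its start, taken as the 5′ end of its record. Of the 33 genes with a known strand, 32 (97%, interval 84.7 to 99.5%) had their start in states 3 to 6, against 47.4% of 17492 protein-coding genes. The share was 95% (19 of 20) in the MHC and antigen presentation genes described below, so it was not particular to effector genes. State 3 alone held 21 of the 33 starts (63.6%, interval 46.6 to 77.8%), against 11.2% of all genes. State 4 held 4 starts (Ifit1, Eif2ak2, Rsad2 and Ifi44), against 9.09% of all genes. State 5 held 3 (Herc6, Dtx3l and Slfn5), against 11.5% of all genes, and state 6 held 4 (Oas3, Oasl2, Trim25 and Parp12), against 15.6% of all genes. The share of starts in states 4, 5 and 6 was thus close to that of all genes, and the surplus sat in state 3. The contrast in state 3 depends on reading the start itself: with any bin within 1 kb of the start counted, state 3 was met by 75.8% of the effector genes, against 36.1% of all genes. The only start outside states 3 to 6 was that of Ifit3, in state 1.

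Both ends of a record could be read for all 42 genes, the 9 without a listed strand included. At least 1 end was in states 3 to 6 for 39 of 42 (92.9%, interval 81 to 97.5%), against 47.6% of all protein-coding genes. An end in state 3 was found in 23 of 42 (54.8%), against 11.6% of all genes. No effector gene had an end in state 18, against 34.3% of all genes. The genes with no end in states 3 to 6 were Ifit3, Oas2 and Rtp4. The gene records were of similar length in both sets, with a median of 16.3 kb for the effector genes and 17.2 kb for all genes.

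**Figure D1:**
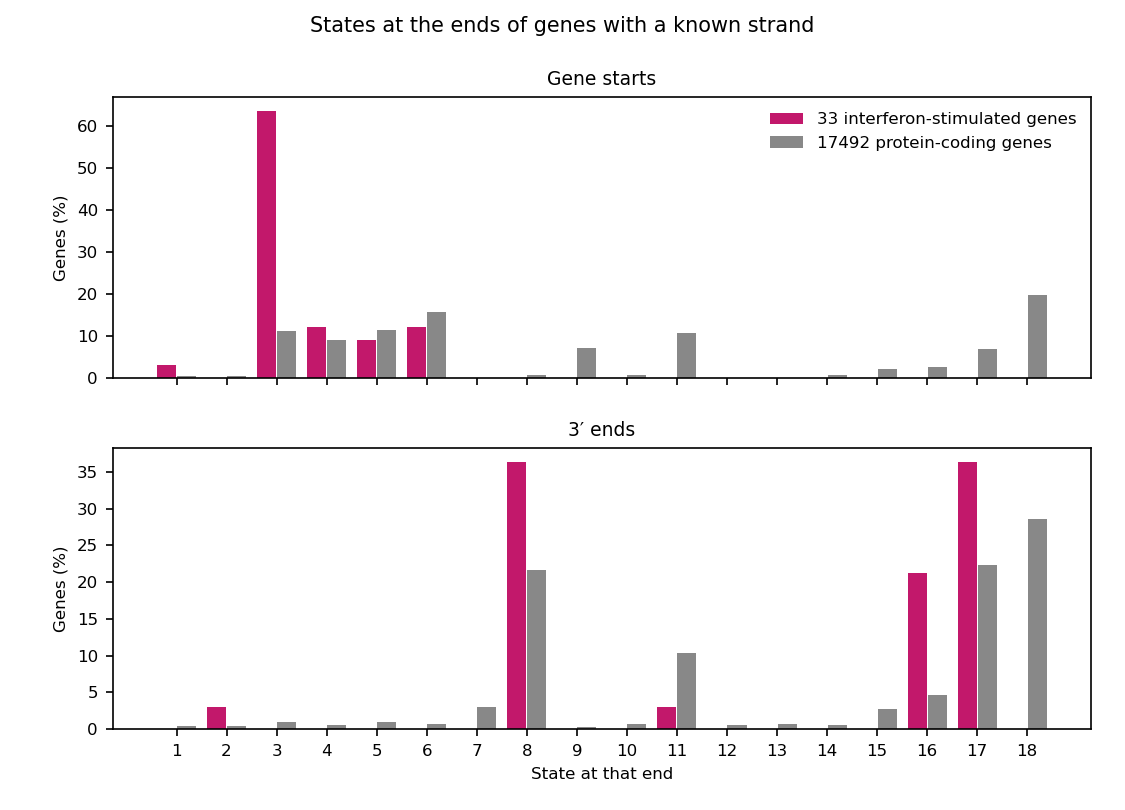
States at the start (upper panel) and the 3′ end (lower panel) of genes with a known strand, as the percentage of genes (y axis) in each of 18 states (x axis), with bars for 33 interferon-stimulated genes left of bars for 17492 protein-coding genes. State 3 holds 63.6% of the effector gene starts and 11.2% of all starts, and state 18 holds 0% of their 3′ ends and 28.6% of all 3′ ends.

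The Ifit genes, of which Ifit1 encodes a protein that binds viral RNA by its 5′ end, lie together on chromosome 19 and differed from each other. Ifit1 (chr19:34640889-34650009) started in state 4. Its window ran 4.4 kb of state 17, 0.2 kb of state 6, 1.2 kb of state 4, 1.2 kb of state 2 and then 4.4 kb of state 17 before 1.4 kb of state 8. Ifit2 (chr19:34550550-34576534) started in state 3, inside a run of 1.6 kb in which states 3 and 5 alternated and which ended in state 6. Ifit3 (chr19:34583119-34588982), only 6.58 kb beyond the end of Ifit2, had no bin of states 3 to 6 anywhere in its window. Its start lay in 1.6 kb of states 2, 1 and 2, with state 17 for 4.6 kb before it and 8.8 kb after it. The start that RefSeq lists with its promoter lay further into the record, in state 2. Ifit3 thus had the same letters at its 2 ISRE matches as Ifit1, and a different state at its start. The Ifit windows held little of states 7 and 8, at 7.32% of bases in Ifit1, 6.67% in Ifit2 and 0% in Ifit3.

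The Oas family is named for enzymes that make short chains of adenylate on binding double-stranded RNA and so activate RNase L, although some members, Oasl1 among them, lack that activity. All 6 with a known strand started in states 3 to 6: Oas1a, Oas1c, Oas1g and Oasl1 in state 3, and Oas3 and Oasl2 in state 6. Oasl1 (chr5:114923143-114937911) had the largest share of states 3 to 6 in the group, at 12.6% of its window. A second run of 1.8 kb, at the neighbouring record 2210016L21Rik, made up part of that share. Oas2 (chr5:120730333-120749886), whose record lies 3.21 kb from the 3′ end of Oas3 and farther from the Oas3 start run, had none. Its window held 28% of states 9 to 11, in segments of 6.6 and 1.8 kb of state 11, with 10.2% of state 18 and 21.9% of states 7 and 8. Oas1a changed state sharply at its promoter, with 4.4 kb of state 18 up to 0.66 kb before the start, a run of 1.8 kb of states 6, 3, 4 and 6, then 1.6 kb of state 17 and 10 kb of state 8. Oasl2 had the same kind of border, with state 18 until 0.12 kb before its start. None of the other 30 runs of states 3 to 6 at starts had state 18 directly before it. Such a border was thus found at 6.25% of the effector start runs. Its share was 8.66% over all genes with a start in states 3 to 6, so it was no more frequent here.

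Relatives of these genes in the same cluster were mixed. Oas1b, held as a pseudogene, had a record end inside the run of Oas1c. Oas1d, Oas1e, Oas1f and Oas1h, which are not on the list, had no end in states 3 to 6 and no bin of those states in their windows. State 18 took 20.4% of the window of Oas1a, 17% of Oas1c and 0% of Oas1g, against 37.9% of Oas1d, 66.6% of Oas1e, 60.2% of Oas1f and 46.1% of Oas1h. Neighbouring gene copies within 1 cluster thus carried different states. Tandem copies such as the Oas1, Gbp, Slfn, Ifit and Trim30 genes have similar sequences, and how reads that map to several copies were treated is not given, so single values within these families are uncertain.

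**Figure D2:**
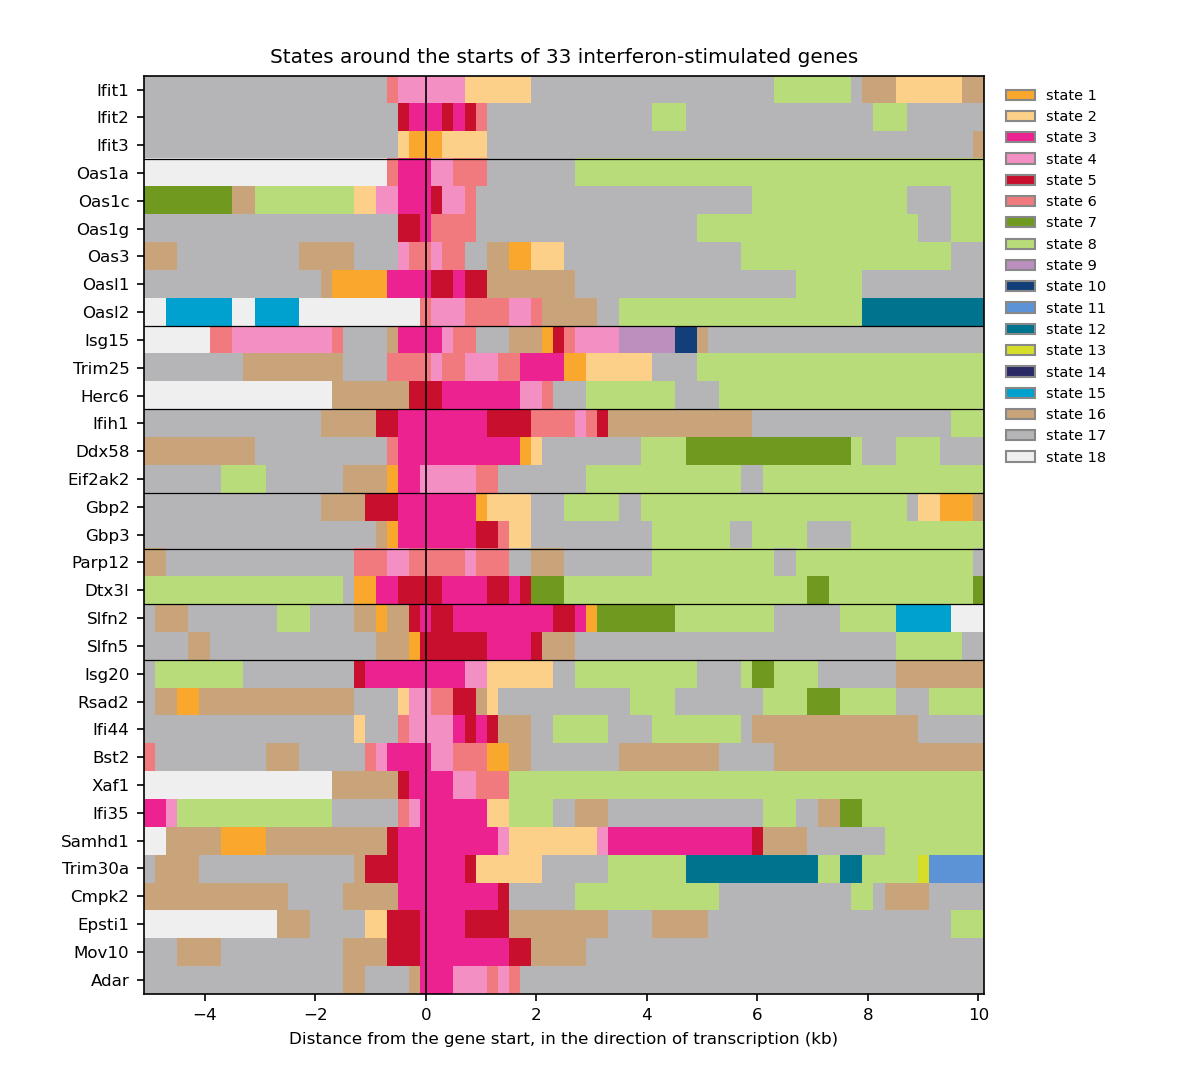
State of each 200 bp bin (colour, 18 states) from 5 kb before to 10 kb after the start of 33 interferon-stimulated genes (1 row each, black lines between role groups; x axis, distance in kb in the direction of transcription). States 3 to 6 lie at the start in 32 rows, and the Ifit3 row has states 1 and 2 there instead.

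ISG15 is a ubiquitin-like protein that is attached to other proteins during infection. Isg15 (chr4:156199424-156200818) is the shortest record of the list, at 1.40 kb, and started in state 3. States 3 to 6 took 43.9% of its window, the highest of the 42. Its own run was 1.4 kb long, and the rest came from 1.2 kb at the start of Agrn and 2.4 kb at the start of AW011738, where the record of Perm1 also ends. Usp18, the protease that removes ISG15 and restrains the interferon receptor, had a run of 1.8 kb in states 4, 3 and 4 at its left end. Trim25, a ubiquitin ligase that activates the sensor RIG-I, started in state 6 and had 14 kb of unbroken state 8 in its body. Herc6 (chr6:57580992-57665136), the main ISG15 ligase of the mouse, started in state 5 and had the lowest share of states 3 to 6 in the group, at 2.76%. Its record is 84.14 kb long, its run of states 3 to 6 at the start was 2.6 kb, and states 7 and 8 took 53.7% of its window in blocks of up to 10.4 kb.

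The cytoplasmic sensors and PKR all had an end in states 3 to 6. Ifih1 encodes MDA5, which binds long double-stranded RNA such as poly(I:C), and started in state 3. Its run of 4.20 kb, from 0.94 kb before to 3.25 kb after the start, was the longest of the 32 start runs. Ddx58, which encodes RIG-I, started in state 3 with 2.2 kb of that state in 1 segment, and 60% of its window was in states 7 and 8. Dhx58, which encodes the regulator LGP2, had 12.4% of its window in states 3 to 6, the highest of the group. Its run of 2.4 kb also held an end of Kat2a, and 22.3% of the window was in states 9 to 11 beyond the other end. Zbp1, a sensor of Z-form nucleic acids that can start cell death, had 0.8 kb of state 3 and 0.4 kb of state 4 at an end, with 1.2 kb of states 2 and 1 beside them. Eif2ak2 encodes PKR, the kinase that stops translation on binding double-stranded RNA. It started in state 4 with the lowest share of states 3 to 6 in the group, 4.28%, and states 7 and 8 took 68.2% of its window.

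Gbp2 and Gbp3 encode guanylate-binding GTPases that attack the compartments of pathogens, and both started in state 3. Gbp3 (chr3:142560016-142573213) had 1.4 kb of state 3 with 8.62% of its window in states 3 to 6. Gbp2 (chr3:142620663-142638008) also had 1.4 kb of state 3, with 7.31%, and a second patch of states 2 and 1 of 1.0 kb inside its body. The start runs of both were 2.0 kb long, and each was followed by states 1 or 2. Of 4 relatives off the list, Gbp5 and Gbp7 also started in state 3, Gbp9 had an end in state 3, and Gbp4 had no end in states 3 to 6.

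Parp9 and Dtx3l encode partner proteins, an ADP-ribosyltransferase and a ubiquitin ligase, and their records overlap by 0.56 kb. They shared 1 run of 2.8 kb made of states 3 and 5 only, the only run found in 2 windows. Dtx3l had 12.4% of its window in states 3 to 6, the highest of the group, and Parp9 had 6.34%, the lowest. The 2.8 kb were the same in both, so the shares differed through window length, 22.5 kb for Dtx3l and 44.2 kb for Parp9. Parp14, on the same chromosome, had a run of 4.0 kb at its right end and the highest share of states 7 and 8 on the list, at 70.1%. Parp12, on chromosome 6, started in state 6, and its run of 2.8 kb held only states 4 and 6. The 4 genes of this group had between 55.3% and 70.1% of their windows in states 7 and 8.

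The Schlafen genes, known in mice for holding T cells quiescent (Slfn2) and as nuclear regulators (Slfn5), split by gene body. Slfn2 (chr11:83065112-83070678) started in state 3, with a run of 3.2 kb that covered 2.89 kb of its 5.57 kb record and 20.6% of its window. Slfn5 (chr11:82951349-82964850) started in state 5, with a run of 2.2 kb and 9.36% of its window. States 7 and 8 took 30.8% of the Slfn2 window and 5.11% of the Slfn5 window, where state 17 and state 16 filled most of the body. Of 4 relatives off the list, Slfn3, Slfn8 and Slfn9 started in state 3, as Slfn2 did, with 6.5%, 9.06% and 10.2% of their windows in states 3 to 6. Slfn1 had both ends in state 17 and no bin of those states.

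Of the other 15 effectors, 12 had a known strand, and 10 of these started in state 3. Bst2 encodes tetherin, which holds budding virus at the cell surface. It had the highest share of states 3 to 6 among them, at 17.2%, from its own run of 2.2 kb and a part of the run at the start of Mvb12a. Epsti1 (chr14:77904239-78002656), an interferon- and stroma-induced gene, had the lowest, at 2.03%, in a record of 98.42 kb. Its run of 2.2 kb, 0.8 kb of state 3 between 0.6 and 0.8 kb of state 5, was like those of shorter genes. Rsad2, which encodes viperin, and Cmpk2, a nucleotide kinase, are neighbours with a gap of 12.66 kb. Rsad2 started in state 4 with a run of 1.2 kb, and Cmpk2 in state 3 with a run of 2.0 kb. Isg20, an RNA exonuclease, reached farthest before its start, by 1.40 kb.

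Several of these effectors had more than 1 run. Adar encodes an enzyme that edits adenosine in double-stranded RNA, and RefSeq lists starts for it at chr3:89715022, chr3:89715238 and chr3:89730718. A run of 1.8 kb lay at the earlier starts and another of 2.0 kb at the last one, with a segment of 10.2 kb of state 17 between them. Trim30a, a regulator of inflammatory signalling in mice, had runs of 2.0 kb and 1.0 kb at its 2 listed starts, the second made of state 3 alone. Samhd1, which degrades the nucleotides that viruses need, had its start run of 2.2 kb and an internal run of 3.0 kb that met no listed start. Tor3a, an ATPase of the endoplasmic reticulum, had a run of 2.4 kb at its right end and 1 of 0.8 kb inside the record. Rtp4, an RNA-binding antiviral protein, had ends in states 10 and 17 and a record of 94.00 kb (chr16:23520219-23614222). A single run of 2.8 kb lay inside it (chr16:23609001-23611800), with states 5, 3, 4 and 6 in order, and state 18 took 69% of the window. The states at its ends therefore say nothing of that run.

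Over all 42 windows there were 50 separate runs of states 3 to 6. A listed start of an effector gene lay within 1 kb of 34 of them, only starts of other genes lay within 1 kb of 5, and 11 met no listed start, among them runs of genes with no listed promoter. At Slfn2, Trim25, Eif2ak2, Ifit1, Oasl1 and Parp12 a start of another gene also lay within 1 kb of the run. The run of Ifi27 also held an end of Ifi27l2a. This split was not counted over all genes, and such runs cannot be assigned to the effector gene alone. Of the 50, 29 mixed states 3 or 5 with states 4 or 6, 13 held only states 3 and 5, and 8 held only states 4 and 6. The 32 runs at starts had a median length of 2 kb (range 1.2 to 4.2 kb), against 2.4 kb for the 8284 genes with a start in states 3 to 6. They reached a median of 0.595 kb before and 1.43 kb after the start, against 0.826 kb before and 1.4 kb after in all such genes. Runs of states 3 and 5 only made up 28.1% of the 32, against 17% in all such genes, and runs of states 4 and 6 only 12.5%, against 16.6%. The shapes of the runs were thus close to those over all genes with a start in states 3 to 6, with a slightly shorter stretch before the start.

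Away from the start, the effector genes moved into states 7 and 8 and into states 16 and 17. At 1 kb after the start 72.7% of the 33 genes were still in states 3 to 6, against 42.2% of all genes, and at 2 kb 18.2%, against 11.2%. States 1 and 2 formed a fringe there, with 21.2% of the effector genes at 1.6 kb, against 4.1% of all genes. At 6.8 kb 54.5% of the effector genes were in states 7 or 8, against 18.6% of all genes. No effector gene was in state 18 in any bin from the start to 9.4 kb after it, where the share of all genes ran from 19.8% to 30.5%. Bins beyond the end of a short gene lie outside it, in both sets.

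**Figure D3:**
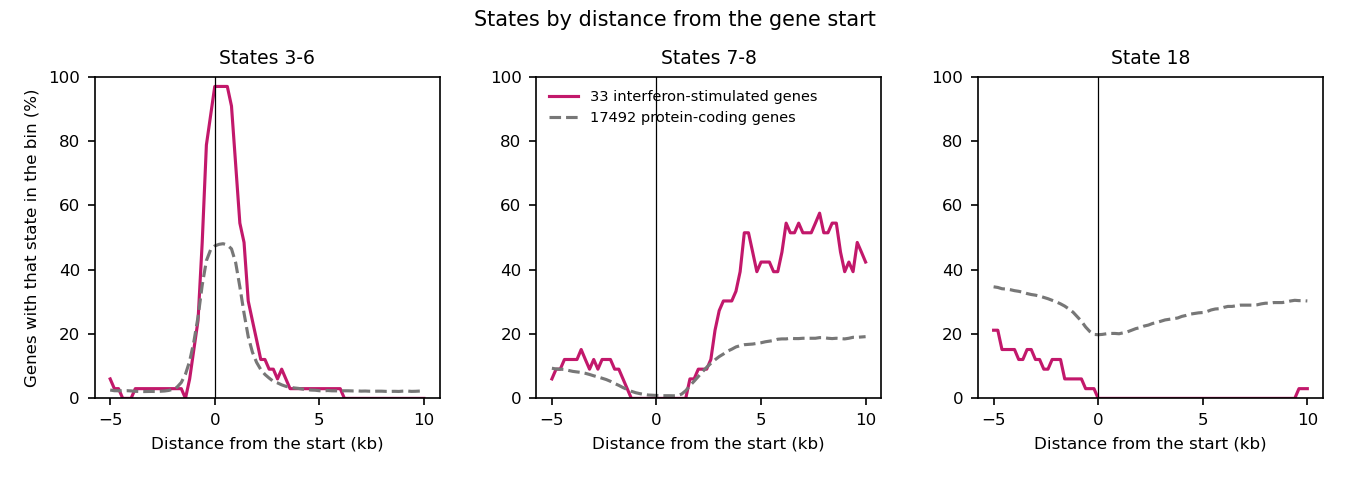
Percentage of genes (y axis) in states 3 to 6, states 7 and 8, and state 18 by distance from the start in kb (x axis, positive in the direction of transcription), for 33 interferon-stimulated genes (solid line) and 17492 protein-coding genes (dashed line). States 3 to 6 reach 97% of effector genes at the start, against 47.4% of all genes, and states 7 and 8 peak at 57.6% of effector genes at 7.8 kb, against 18.9% of all genes there.

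At the 3′ end, 12 of 33 effector genes were in state 8 (36.4%), against 21.7% of all genes. Another 19 were in state 16 or 17 (57.6%), against 27.0% of all genes. The remaining ends were those of Ifit1 in state 2 and Xaf1, which encodes a partner of an apoptosis inhibitor, in state 11. No effector gene ended in states 3 to 6, against 3.09% of all genes. The start and the 3′ end of these genes were thus in different groups of states in all 33. That share was not counted over all genes. Few 3′ ends of any gene lay in states 3 to 6, so the count largely restates where the starts lay.

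In the windows as a whole, states 3 to 6 took a median of 8.06% of bases, against 2.57% over all protein-coding genes, with a range of 0 to 43.9% over the 42. At least 1 bin of them was present in 40 of 42 windows, against 60.3% of all genes. States 7 and 8 took a median of 34%, against 4.98%, and were present in 38 of 42 windows, against 56.2% of all genes. The windows without them were those of Ifit3, Isg15, Bst2 and Ifi27, a mitochondrial protein. Within the records alone, states 7 and 8 took a median of 45%, against 0% over all genes. These 4 are among the 5 shortest records of the list, of 1.40 kb for Isg15 to 6.06 kb for Ifi27, and the fifth, Slfn2, had 30.8%.

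State 18 was absent from most windows: 17 of 42 held any of it, against 68.8% of all genes, and its median share was 0%, against 14.3%. The largest share outside Rtp4 was 20.4%, in Oas1a. States 9 to 11 were present in 9 of 42 windows, against 44.8% of all genes, and reached 24.8% in Xaf1 and 28% in Oas2. States 1 or 2 were present in 30 of 42, against 42.5% of all genes. States 12 or 13 were present in 3 of 42 (Oasl2, Herc6 and Trim30a), against 13.8% of all genes, and state 14 in none, against 9.89%. States 16 or 17 were present in all 42 windows, against 77.7% of all genes, with a median of 41.2%, against 27.4%.

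**Figure D4:**
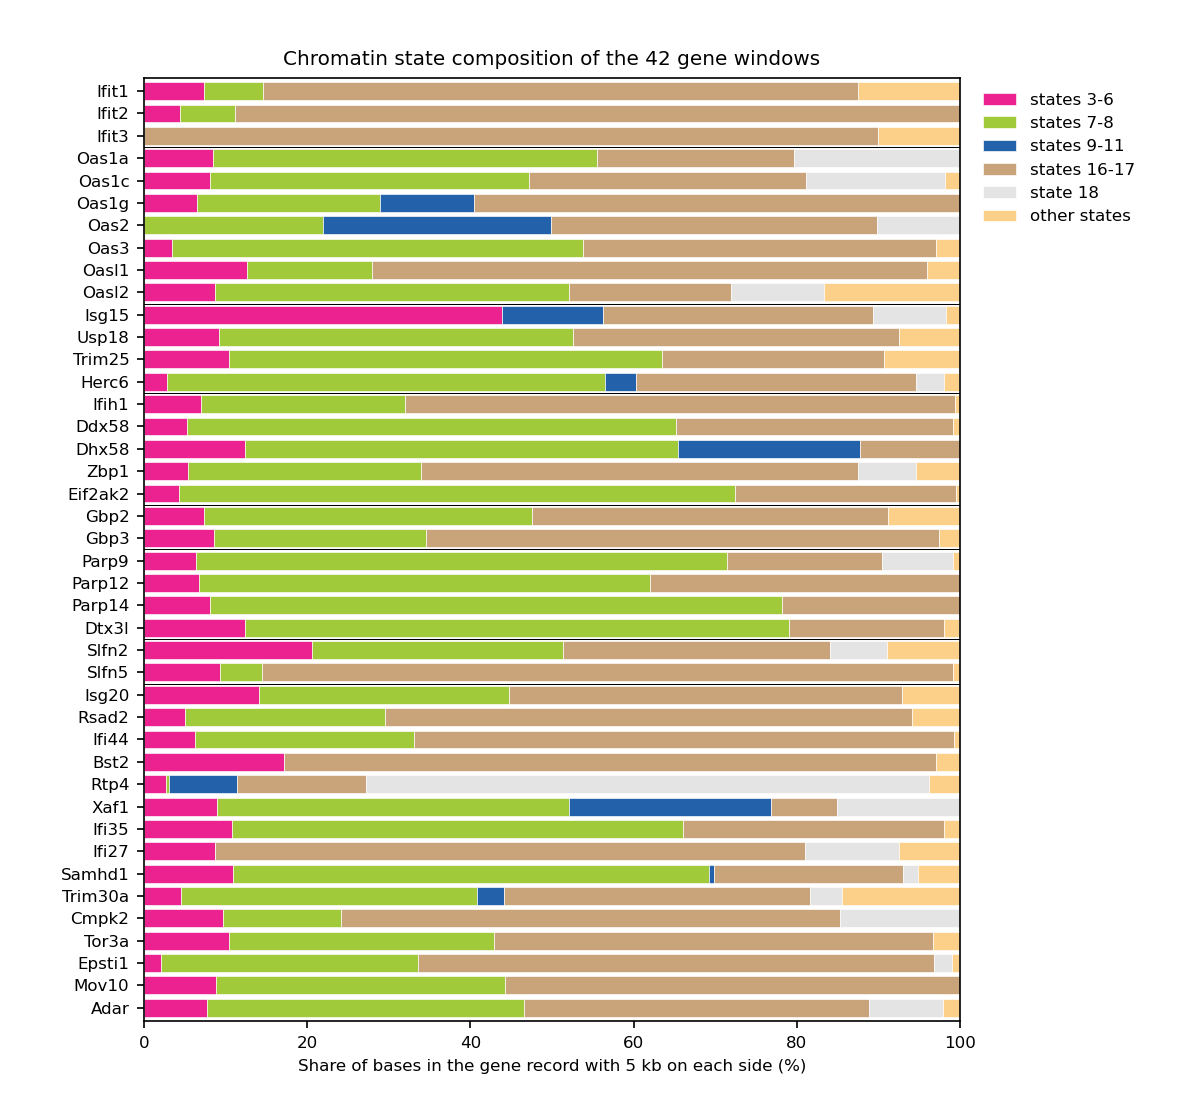
Share of bases (x axis, %) in 6 groups of states for the record of each of the 42 interferon-stimulated genes with 5 kb on each side (1 bar per gene, black lines between role groups). Isg15 has the largest share of states 3 to 6, at 43.9%, Ifit3 and Oas2 have none, and Rtp4 has 69% of state 18.

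The letters of the listed promoters were then set beside the states. The ISRE core GAAANNGAAA, on either strand, was present in 16 of 33 effector genes (48.5%, interval 32.5 to 64.8%), against 3.94% of all 17492 genes. These had 26 matches, of which 22 lay before the start, with a median first base at −69 and a range from −156 to 32. Matches could overlap, and 9 genes had 2 or more. Of the 26 matches, 24 lay in bins of states 3 to 6, 18 of them in state 3, and the other 2 were those of Ifit3 in states 1 and 2. Matches were searched only close to starts, and 32 of 33 starts were in states 3 to 6. The states of the matches therefore largely restate where the starts lay, and they were not counted over all genes. The genes with a match were Ifit1, Ifit3, Oas1a, Oas1c, Oas1g, Oas3, Isg15, Ifih1, Ddx58, Eif2ak2, Gbp2, Gbp3, Slfn5, Rsad2, Bst2 and Trim30a. Over the whole genome the share of genes with the core was similar in and out of states 3 to 6: 331 of the 689 genes with the core (48%) had their first listed start in states 3 to 6, as did 8794 of all 17492 genes. Of the genes with a first start in state 3, 5.03% had the core, and of those with one in state 18, 4.58% had it. State 2, where the listed start of Ifit3 lay, had the highest share of any state, 13 of 97 genes (13.4%), with Ifit3 itself among the 13. Some states held few first starts, such as state 7 with 11 genes, so the ranking of states is uncertain.

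Other letters gave smaller contrasts. The GAS core TTCNNNGAA, known from genes induced by interferon gamma, reads the same on both strands and was present in 8 of 33 effector genes (24.2%), against 8.92% of all genes. The letters TATAAA, on either strand, were present in 4 of 33 (12.1%), against 14.8% of all genes. A match says only that the letters are there, and it does not show that a factor binds.

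The promoters of the effector genes were poor in the dinucleotide CpG beside other genes that start in states 3 to 6. CpG content is given as observed over expected, the number of CpG set against the number the C and G content would give by chance. Its median was 0.32 over 33 effector genes, against 0.58 over all genes. Among genes with the first listed start, not the record end, in state 3 it was 0.27 for effector genes and 0.73 for all genes. A value under 0.4, a limit chosen after the values were seen, was found in 23 of 33 effector genes (69.7%), against 39.1% of all genes. Of these low-CpG promoters, 22 of 23 effector genes had their first listed start in states 3 to 6, against 10.8% of the 6845 genes with such a promoter. In all genes low CpG thus went with starts outside states 3 to 6, and 44.2% of the 6845 low-CpG genes started in state 18. By contrast, 22 of the 33 effector genes had both low CpG and a start in states 3 to 6.

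The lowest values were those of Trim30a, with no CpG in its promoter (0.00), Isg20 and Ifit3 with 0.06 each, and Epsti1 and Slfn2 with 0.11 each. All of these but Ifit3 started in state 3. At the other end, Parp12 had 1.14, Samhd1 had 0.91 and Ifih1 had 0.82. The 10 effector promoters at or above 0.4 also all had a start in states 3 to 6, against 75.7% of all such genes. States 3 to 6 were thus present at effector genes with low and with high CpG content, Ifit3 excepted.

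**Figure D5:**
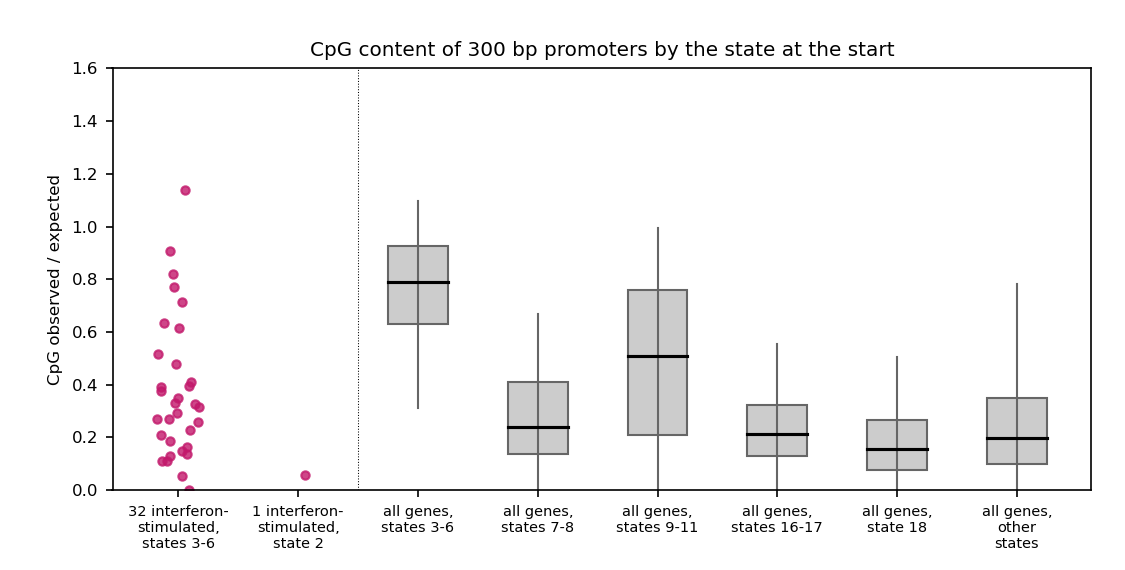
CpG observed over expected in the 300 bp promoter (y axis) of 33 interferon-stimulated genes (points, spread sideways at random, 32 with the first listed start in states 3 to 6 and Ifit3 in state 2), left of all genes by the state at the first listed start (box, middle 50% of genes; line in the box, median; whisker, 5% to 95%). The effector genes have a median of 0.32, against 0.79 for all genes with a start in states 3 to 6.

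Genes that act upstream in the same pathway were read the same way. Of 9 interferon regulatory factors, 6 had an end in states 3 to 6, and 2 of the 8 with a strand started in state 3 (Irf7 and Irf9). Irf4, Irf5 and Irf8, the factors of lymphoid and myeloid cells, started in state 9. Of 11 JAK and STAT genes 9 had an end in states 3 to 6, and Stat4 and Stat5b had none. Stat2 started in state 6, and the receptor genes Ifnar1 and Ifnar2 started in states 5 and 3. States 3 to 6 held 5 of 8 starts of interferon regulatory factors and 8 of 10 starts of JAK and STAT genes. State 3 held 21 of 33 starts of effector genes, against 3 of 10 starts of JAK and STAT genes. Differences between these short lists were not tested.

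Of 25 genes for MHC proteins and antigen presentation, many of them also induced by interferon, 23 had an end in states 3 to 6, Ciita and H2-Eb1 being the others. Of their starts, 19 of 20 (95%) were in states 3 to 6, near the share of effector genes. Only 3 of 20 of their starts were in state 3, and 4 of 20 promoters had the ISRE core. The median share of states 3 to 6 was 8.06% in the windows of effector genes, against 20.5% in those of the MHC and antigen presentation genes. Most of these genes lie closely packed on chromosome 17, so a window can hold the promoters of several.

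Among the comparison lists, the 65 other interferon pathway genes were closest to the effector genes in ISRE core, CpG content and starts in state 3. In ends and starts in states 3 to 6, the MHC and antigen presentation genes were closer. An end in states 3 to 6 was found in 46 of the 65 (70.8%), and 37 of 51 (72.5%) started in those states. In state 3 started 19 of 51, and 24 of 51 (47.1%) had the ISRE core. The median CpG observed over expected was 0.32 in the promoters of effector genes, against 0.33 in those of the other pathway genes. An end in state 18 was found in 0 of the 42 effector genes, against 14 of 65 other pathway genes. The interferon genes were among those with no end in states 3 to 6, with Ifnb1 at state 18 at both ends and Ifna1 at states 16 and 17. So were the nucleic acid sensors Aim2, Ifi204, Ifi205 and Tlr3, the chemokine genes Cxcl9 and Ccl5, and Ifi44l, Ifi27l2b, Ifit1bl1, Phf11b and Iigp1. This did not hold for every gene of these kinds. The chemokine gene Cxcl10 and Ifi203, a relative of Ifi204, started in state 5, and the DNA sensor gene Cgas started in state 3. The gene next to Ifi44, Ifi44l, thus had ends in states 17 and 16, while Ifi44 itself started in state 4.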

How the data were processed

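H3.3 was profiled by native ChIP-seq after micrococcal nuclease digestion with a rat monoclonal antibody, per the labels' protocols. The build was mm10, and HOMER, MACS2, deepTools and Bowtie2 were used with no version stated, per the submitters' processing notes. The deposited unit is a state number (1 of 18) per segment, ordered by emission, per the file headers. Track and file names point to ChromHMM. Neither the signals it was trained on nor its version is stated. The map covers 2726.83 Mb with 850831 segments and no gaps, and the dense and expanded files gave the same state in 100% of bins. Depth per sample is unknown. There were 0 value columns of other samples.

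Segments were expanded to bins of 200 bp. Gene records came from RefSeq on GRCm38.p6, which mm10 follows, and coordinates are 1-based. All 42 effector genes matched a record. Of 21900 protein-coding genes, 13 mitochondrial ones and 108 in the unassembled first 3 Mb of a chromosome were left out. The strand came from the RefSeq promoter table, for 17492 genes and 33 of the 42. The 9 without an entry (Oas2, Usp18, Dhx58, Zbp1, Parp9, Parp14, Rtp4, Ifi27 and Tor3a) were read at both ends. Segments were clipped to the window, and the 42 windows merged into 38 regions of 1439.9 kb on 14 chromosomes. Motifs were searched as letters on both strands of 300 bp promoters, in any listed promoter of a gene.

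No sample grouping or test was possible on 1 map, and lists are given as counts beside all protein-coding genes. The effector genes, their role groups, the comparison lists and the groups of states were chosen with earlier results of these data known. All 42 could be named. In each role group the genes with the highest and lowest window share of states 3 to 6 were described more fully, with every gene that had no end in those states. Genes off the list were named from the comparison lists where they had no end in states 3 to 6, or where they shared a run. Slfn3, Slfn8, Slfn9, Gbp5, Gbp7, Gbp9, Agrn, AW011738, Perm1, Mvb12a, 2210016L21Rik, Irf7, Irf9, Stat2, Ifnar1, Ifnar2, Cxcl10, Ifi203 and Cgas were chosen after their values were seen. Oas1b, a pseudogene in the table, was left out of its list. Some genes of the comparison lists are not reported here.

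Counting at starts was tested on simulated data: with states planted at 200 genes, 100% of planted starts were recovered, and 0 were found where none was planted. Alternatives changed the distance to an end, segments of 1 bin, the file, the flank, edge segments, tandem copies, neighbours, the background genes and the motif letters. Python 3.11.15, numpy 2.4.6, pandas 2.3.3 and matplotlib 3.10.9 were used.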

Additional observations from a re-analysis of the deposited data

How the results depend on the processing

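The share of effector genes with an end in states 3 to 6 ran from 90.5% to 93.5% over its alternatives, and that with a start in state 3 from 57.6% to 75.8%. The share with a start in states 3 to 6 ran from 93.9% to 100%, the last with genes within 100 kb counted once, which drops Ifit3. The shares of all genes moved with the distance allowed: 51.8% had an end and 51% a start in states 3 to 6 within 1 kb, and 36.1% a start in state 3. With all annotated genes 25.8% had an end in states 3 to 6, and with autosomes only 48.7%. With any listed start, an alternative chosen after seeing the data, 51.6% of all genes had a start in states 3 to 6 and 12.6% in state 3, and with segments of 1 bin left out 11.8% did so in state 3. The median window share of states 3 to 6 was 7.39% for effector genes, against 1.44% for all genes, with no flank, 6.11% against 2.78% with 10 kb, and 6.25% against 2.18% with edge segments kept whole. That of states 7 and 8 was 45% against 0% with no flank, 29.7% against 7.27% with 10 kb, and 27.7% against 4.64% with edge segments kept whole. The longer letters GAAANNGAAACT were in 30.3% of effector promoters, against 0.366% of all, and the shorter GAAANNGAA in 57.6%, against 9.43%. The effector genes had the higher share in each of these pairs.

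No paired analysis was possible because the map has no column for a replicate. The limits are those of 1 map: its input signals are unknown, spread between animals cannot be given, genes in 1 cluster are not independent, and states in near-identical copies rest on read mapping that is not given. A state number is not a level of H3.3 or of expression.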
